A study of Homo sapiens with 8 samples.

Results

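The genes described here are 9 interferon-stimulated genes of a human osteosarcoma cell line, ISG15, IFI6, IFI27, IFIT1, IFIT2, IFIT3, MX1, OAS1 and IRF9. They were chosen by name, with earlier results of these data known. All 9 were found among the 54174 gene symbols in the deposited table, with a value in every library. The cells were 143B, an established osteosarcoma line, and RNA was taken 48 h after transient transfection with a NELL1KO plasmid (genotype NELL1 knockout, 4 libraries) or a vector plasmid (genotype control, 4 libraries). No further allele or drug is named for either group, no clone selection is described, and both groups went through the same transfection with TransIT-LT1 reagent, so a response to plasmid uptake that is common to both cannot be seen in the comparison. Nothing in the labels says whether the replicates came from separate cultures, and p-values then measure only the spread between these libraries.

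Interferon-stimulated genes are the target genes of the interferon receptors. Type I interferons bind IFNAR1 and IFNAR2, the kinases JAK1 and TYK2 are activated, and the ISGF3 complex, which holds STAT2 and IRF9, forms and binds the interferon-stimulated response element (ISRE) in the promoters of these genes. Their products act against viruses at several steps, and many are also transcribed at a low level in the absence of added interferon.

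RefSeq promoter sequences of GRCh38.p14, from 250 bases before to 50 bases after a transcription start, were found for 8 of the 9 genes. IFIT2 had no entry. An ISRE core was searched on both strands as GAAA, any 2 bases (NN), GAAA, and an interferon-gamma activated site (GAS), a second element of interferon target genes, as TTCNNNGAA, which reads the same on both strands. The ISRE core was present in at least 1 window of 6 of the 8 genes (ISG15, IFI6, IFI27, IFIT1, IFIT3 and MX1), against 3.57% of all 35116 windows of the same length and 4.38% of all 27305 symbols, counting any window of a symbol. IRF9 and OAS1 held no ISRE core in this window. The GAS letters were found for 4 of the 8 genes (IFI27, MX1, OAS1 and IRF9), against 7.66% of all windows and 9.38% of symbols. In IFI27 the GAS letters overlapped both ISRE matches. The stretches from 160 to 41 bases before the start are shown for the genes on which the results below turn: ISG15 and IFI27, which lay higher in every knockout library, IFI6, which lay on both sides of the controls, IRF9, which fell, and IFIT1 for the adjacent IFIT genes. Capitals mark ISRE matches, except in IRF9, where they mark the GAS letters.
ISG15 (chr1:1013337-1013456, + strand): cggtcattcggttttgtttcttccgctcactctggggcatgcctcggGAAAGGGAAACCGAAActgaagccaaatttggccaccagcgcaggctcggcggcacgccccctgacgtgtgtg
IFI27 (chr14:94110576-94110695, + strand): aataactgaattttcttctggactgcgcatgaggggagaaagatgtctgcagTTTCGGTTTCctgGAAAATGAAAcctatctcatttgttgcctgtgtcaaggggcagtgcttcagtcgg
IFIT1 (chr10:89392463-89392582, + strand): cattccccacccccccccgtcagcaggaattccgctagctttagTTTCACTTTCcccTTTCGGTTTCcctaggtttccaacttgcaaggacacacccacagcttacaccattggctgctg
IFI6 (chr1:27672233-27672352, - strand): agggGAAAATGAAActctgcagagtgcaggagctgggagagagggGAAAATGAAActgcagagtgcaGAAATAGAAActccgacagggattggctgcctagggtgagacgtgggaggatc
IRF9 (chr14:24161105-24161224, + strand): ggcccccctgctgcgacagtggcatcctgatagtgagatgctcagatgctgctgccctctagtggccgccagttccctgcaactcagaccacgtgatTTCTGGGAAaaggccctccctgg

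In ISG15 the 2 ISRE matches overlap, the first beginning 113 bases and the second 107 bases before the start. In IFI6 there are 3 separate matches, beginning 156, 115 and 93 bases before the start, and the first 2 have the same letters. IFI27 and IFIT1 each hold 2 matches, and the IFI27 pair points in opposite directions. MX1 has 1 match within the 50 bases after one of its 3 listed starts and 1 match before another. A match of letters is a description and was not tested for binding.

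The values are on a log2 scale whose base was inferred from their range, and all libraries were deposited with a common distribution, whose median was 1.77. The unit before the logarithm is not stated, so levels are compared between libraries for 1 gene. Only the ranks and marker sums below set genes against each other, in that unstated unit. A library held a value for 14911 to 15171 genes. Only 3 of the 9 genes (ISG15, IFI6 and IRF9) had a mean of at least 1 and entered the limma fit over 9016 genes. The other 6 had means under 1 and ranked low, from percentile 8.12 to percentile 32.7 within a library's measured genes. Sequencing depth is unknown, so no counting error can be attached to those low values. NELL1 itself ranged from -6.97 to -4.53 where it had a value, with a control mean of -5.87 ± 1.29 (SD, n = 4) and a knockout mean of -5.88 ± 1.07 (SD, n = 3), so its transcript did not check the labels and "knockout" is used as the labels' name. Over the tested genes the SD of the difference was 0.12 between knockout libraries 1 and 2 and 0.13 between knockout libraries 3 and 4. Controls held a close pair too, with 0.10 between control libraries 1 and 2, and up to 0.29 between control libraries 1 and 3. The SD was 0.456 to 0.50 between the knockout pairs, more than the 0.355 to 0.454 between knockout and control libraries. Values are therefore also given for replicates 1 and 2 and for replicates 3 and 4. Of the osteoblast-lineage and mesenchymal markers, VIM, SPARC, CDH11 and SPP1 were expressed above the filter, SP7 was blank, and COL1A2 and BGLAP were blank in 4 and 5 of the 8 libraries. Of the 4 tested, SPARC was higher by 0.62 in the knockouts, and VIM and CDH11 differed by -0.43 and -0.87 (limma adjusted p = 0.0294, 0.0425 and 0.0364), while SPP1 was not called. The summed linear level of the 10 markers was 1839 to 1965 across controls and 1260 to 1733 across knockouts. Most of this sum was VIM, so it does not describe the other markers. Of the 8 blood and immune cell markers, 3 were blank in every library, among them PTPRC and CD3E. CSF1R had low values in all 8 libraries (-4.08 to -3.07), and ITGAM had a value in 7. LYZ and CD14 each had a value in 6, with CD14 blank in knockout libraries 1 and 2. This list's linear sum, which is almost all CD68, was 52.9 to 60.0 across controls and 46.7 to 58.9 across knockouts. Of the 5 epithelial markers, KRT8, KRT18 and EPCAM were above the filter. KRT19 had values in 6 libraries, from -5.72 to -2.85, and CDH1 in 2. The linear sum of the 5 was 535 to 578 across controls and 611 to 702 across knockouts, most of it KRT18. KRT8 was higher by 0.38 (limma adjusted p = 0.0175), KRT18 differed by 0.19 (limma adjusted p = 0.100) and EPCAM by -0.32 (limma adjusted p = 0.345). The part of these markers in the results below was not tested.

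Among the 3 tested genes, ISG15 rose, IRF9 fell and IFI6 did not pass the threshold. ISG15 encodes a ubiquitin-like protein that is conjugated to other proteins and is also secreted, and IRF9 is the DNA-binding subunit of ISGF3. The 1 rise and 1 fall stand against a background of 13.1% of the 9016 tested genes called in either direction, 7.02% higher and 6.10% lower. In bulk RNA, fewer cells with a transcript and less transcript per cell cannot be told apart.

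ISG15 was 3.33, 3.32, 2.91 and 3.34 in control libraries 1 to 4 and 3.91, 3.84, 4.29 and 4.12 in knockout libraries 1 to 4. Every knockout library lay above every control, and control library 3 was the low one of its group. The log2 difference was 0.82 ± 0.13 (SE, n = 4 each; limma adjusted p = 0.00838), a 1.76-fold higher level. Replicates 1 and 2 alone gave 0.55, and replicates 3 and 4 alone gave 1.08. With each close pair of knockout libraries averaged and counted as 1 library, the limma adjusted p was 0.0662 and the call was lost.

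IRF9 was 2.23, 2.34, 2.03 and 2.13 in control libraries 1 to 4 and 1.40, 1.66, 1.64 and 1.62 in knockout libraries 1 to 4. The groups did not overlap, and the lowest control exceeded the highest knockout library. The log2 difference was -0.60 ± 0.09 (SE, n = 4 each; limma adjusted p = 0.00676), so the control level was 1.52-fold the knockout level. Replicates 1 and 2 alone gave -0.75, and replicates 3 and 4 alone gave -0.45. With the close knockout pairs averaged the limma adjusted p was 0.0571, and this call was lost too.

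STAT2, a partner of IRF9 in ISGF3, did not pass the test. Its control and knockout means were 2.49 ± 0.02 and 2.66 ± 0.23 (SD, n = 4 each), with a 95% interval of the log2 difference from -0.08 to 0.42 (limma adjusted p = 0.345). By set, the STAT2 difference was -0.02 (replicates 1 and 2) and 0.36 (replicates 3 and 4). Its interval lay above that of IRF9, which ran from -0.81 to -0.39, but the difference between the genes was not tested.

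**Figure D1:**
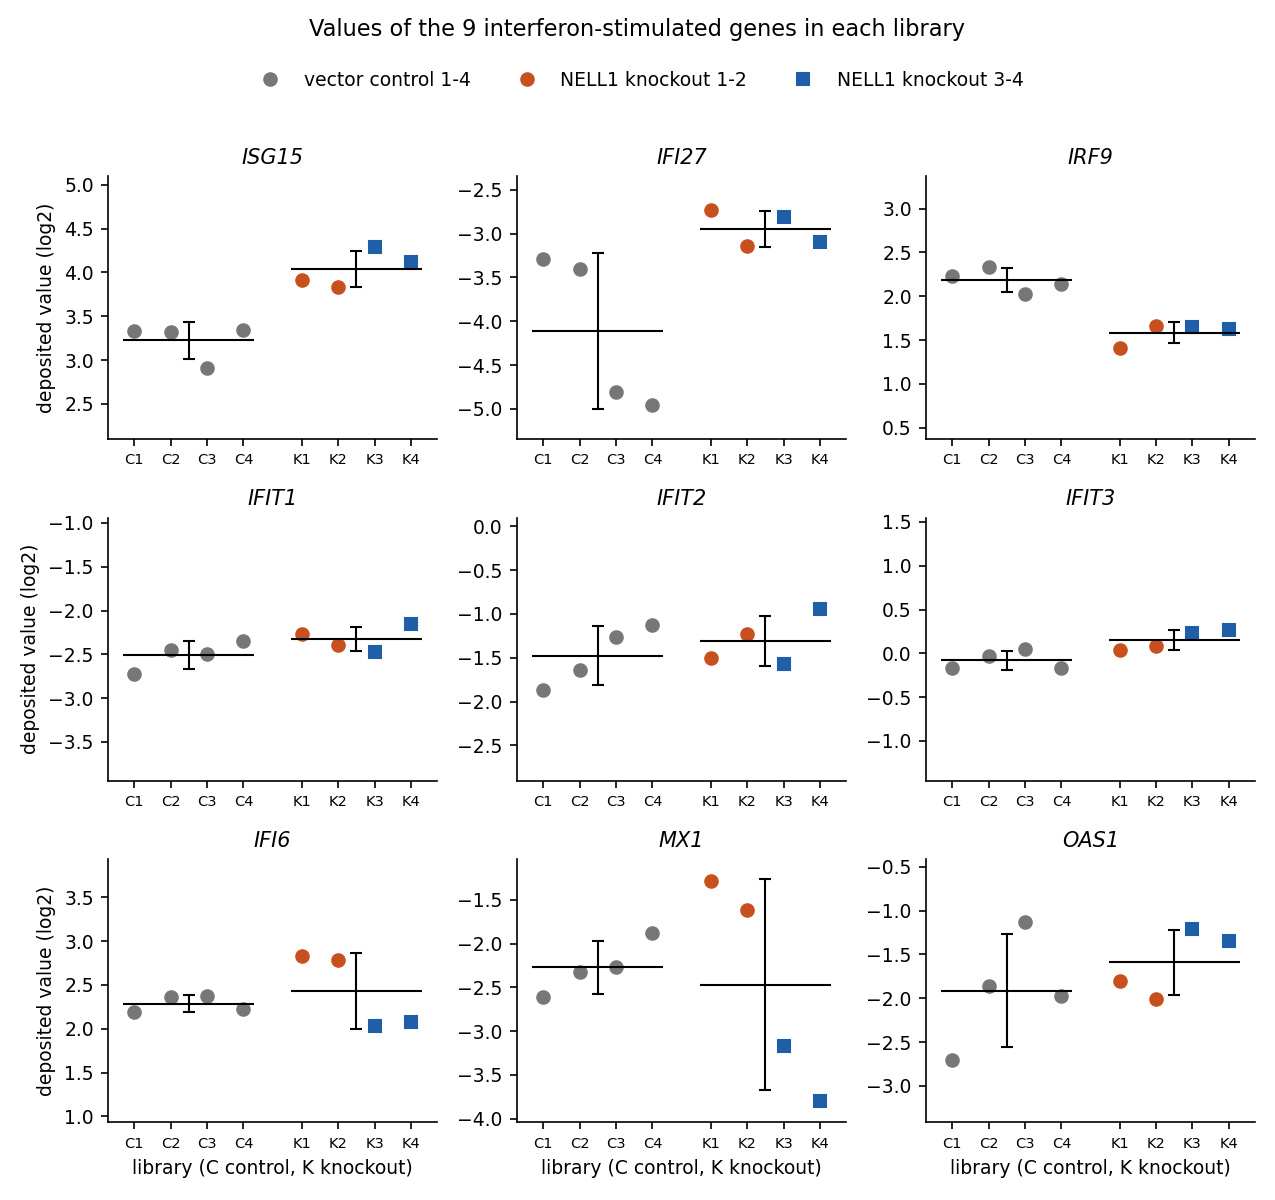
Deposited log2 value (y axis, 3 log2 units high in each panel) of each of the 9 genes in control libraries 1 to 4 (C1 to C4, grey) and knockout libraries 1 to 4 (K1 to K4, orange circles for 1 and 2, blue squares for 3 and 4), with the group mean as a line and the SD as a bar. ISG15, IFI27 and IRF9 do not overlap between groups, while IFI6 and MX1 show the knockout pairs above and below the controls.

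IFI6 and IFI27 encode small related membrane proteins, of which IFI6 is known for limiting cell death and some viral infections. IFI6 was 2.19, 2.36, 2.38 and 2.23 in control libraries 1 to 4. It was 2.83 and 2.78 in knockout libraries 1 and 2 and 2.04 and 2.08 in knockout libraries 3 and 4. The first pair lay above every control and the second pair below every control. The difference over all 8 libraries was 0.14 ± 0.19 (SE, n = 4 each; limma adjusted p = 0.653), with a 95% interval from -0.29 to 0.58. This near-zero value was the mean of a set difference of 0.53 (replicates 1 and 2) and one of -0.24 (replicates 3 and 4). Within those sets, each of 2 against 2 libraries, the limma adjusted p was 0.00107 and 0.0738, where 59.7% and 33.1% of all tested genes were called. Set against all 4 controls, knockout libraries 1 and 2 differed by 0.52 (limma adjusted p = 0.00225; 40.5% of all tested genes called) and knockout libraries 3 and 4 by -0.23 (limma adjusted p = 0.0442; 41.4% called). The difference between the sets was not tested.

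IFI27 was low, at -3.29, -3.40, -4.81 and -4.96 in control libraries 1 to 4 and -2.73, -3.14, -2.81 and -3.09 in knockout libraries 1 to 4. All knockout libraries lay above all controls (exact two-sided permutation p = 0.0286, not adjusted for the 6 low genes tested, and the smallest that the 70 splits allow). Groups that did not overlap were found for 3 of the 9 genes, ISG15 and IFI27 (higher) and IRF9 (lower), and for 20.4% of the 13943 genes with 8 values (11.3% higher, 9.02% lower). The log2 difference was 1.17 ± 0.40 (SE, n = 4 each), and in a fit over all 13943 genes it did not pass the threshold (limma adjusted p = 0.113). It passed with a batch term for replicates 1 and 2 against 3 and 4 (limma adjusted p = 0.0445), a fit that called 18.4% of all genes. Control libraries 3 and 4 were lower than control libraries 1 and 2, and the knockout pairs were alike. The set differences were 0.41 (replicates 1 and 2) and 1.93 (replicates 3 and 4), with limma adjusted p-values of 0.143 and 0.0184 over 13943 genes, and most of that gap lay in the controls. After adding a pseudocount of 1 on the linear scale the difference was 0.09.

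The IFIT genes lie side by side on chromosome 10 and encode tetratricopeptide-repeat proteins, of which IFIT1 binds viral RNA caps and IFIT3 binds IFIT1. IFIT1 was -2.72, -2.46, -2.50 and -2.35 in control libraries 1 to 4 and -2.26, -2.39, -2.48 and -2.16 in knockout libraries 1 to 4. IFIT2 was -1.86, -1.64, -1.27 and -1.13 in control libraries and -1.50, -1.23, -1.57 and -0.94 in knockout libraries. For both genes the groups overlapped in part. IFIT3 was -0.17, -0.04, 0.05 and -0.16 in control libraries and 0.04, 0.08, 0.23 and 0.26 in knockout libraries, and only control library 3 reached into the knockout range. The log2 differences were 0.18 ± 0.11 for IFIT1, 0.17 ± 0.20 for IFIT2 and 0.23 ± 0.09 for IFIT3 (SE, n = 4 each). Exact two-sided permutation p-values, unadjusted, were 0.171, 0.486 and 0.0571. In the fit over 13943 genes, in which 8.30% of genes were called, none of these 3 passed (limma adjusted p = 0.327, 0.646 and 0.141). Leaving out control library 1 lowered IFIT1 to 0.11 and IFIT2 to 0.04, and IFIT2 ranged from 0.04 to 0.28 over the libraries left out. The protein-coding gene LIPA overlaps all 3 in the RefSeq annotation. LIPA had a control mean of 3.44 ± 0.05 and a knockout mean of 3.56 ± 0.07 (SD, n = 4 each; limma adjusted p = 0.243), and its part in the low IFIT values was not tested. IFIT5, the remaining tested gene of this family, had a log2 difference of 0.25 with groups that did not overlap (limma adjusted p = 0.0801).

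MX1, a dynamin-like GTPase that blocks influenza and other viruses, varied most between the knockout pairs. It was -2.61, -2.32, -2.27 and -1.88 in control libraries 1 to 4. It was -1.28 and -1.62 in knockout libraries 1 and 2, above every control, and -3.17 and -3.80 in knockout libraries 3 and 4, below every control. The knockout SD of 1.21 (n = 4) exceeded the control SD of 0.30 (n = 4), and the log2 difference of -0.20 ± 0.55 (SE) was far inside that spread (exact two-sided permutation test, n = 4 each, p = 0.8). It was -0.59 and -0.48 without knockout library 1 or 2 and -0.31 and -0.07 without control library 1 or 4. Its sign changed without knockout library 3 (0.04) or 4 (0.25), and with a pseudocount of 1 (0.01). The set differences were 1.02 (replicates 1 and 2) and -1.41 (replicates 3 and 4), with limma adjusted p-values of 0.0299 and 0.0446 over 13943 genes in fits of 2 against 2 libraries. These fits called 34.9% and 16.2% of all genes. The difference between the sets was not tested.

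OAS1 makes the oligoadenylates that activate RNase L. It was -2.70, -1.86, -1.13 and -1.97 in control libraries 1 to 4 and -1.80, -2.0, -1.21 and -1.35 in knockout libraries 1 to 4. The knockout values lay inside the control range. The log2 difference was 0.32 ± 0.33 (SE, n = 4 each; exact two-sided permutation p = 0.514), with a 95% interval from -0.44 to 1.09. It was 0.06 without control library 1 and 0.59 without control library 3.

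A mean over the 9 genes was higher in the knockouts and hid these separate movements. The mean over controls was -0.52 ± 0.09 and over knockouts -0.27 ± 0.10 (SD, n = 4 each), a difference of 0.25. It ran from -0.62 to -0.41 across control libraries and from -0.36 to -0.15 across knockout libraries, without overlap. For the 3 tested genes alone, where the ISG15 and IRF9 differences had opposite signs, the difference of the means was 0.12. Of the 9 single differences 7 were above 0 and 2 below, with a median of 0.18, against a median of 0.02 over all 13943 genes. The members ranged from -0.60 (IRF9) to 1.17 (IFI27), so the largest single part of the 0.25 came from a gene with low values. The mean also narrowed the gap between the knockout pairs. It was -0.15 and -0.22 in knockout libraries 1 and 2 and -0.34 and -0.36 in knockout libraries 3 and 4, although MX1 differed by more than 1 log2 unit between any library of one pair and any of the other.

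**Figure D2:**
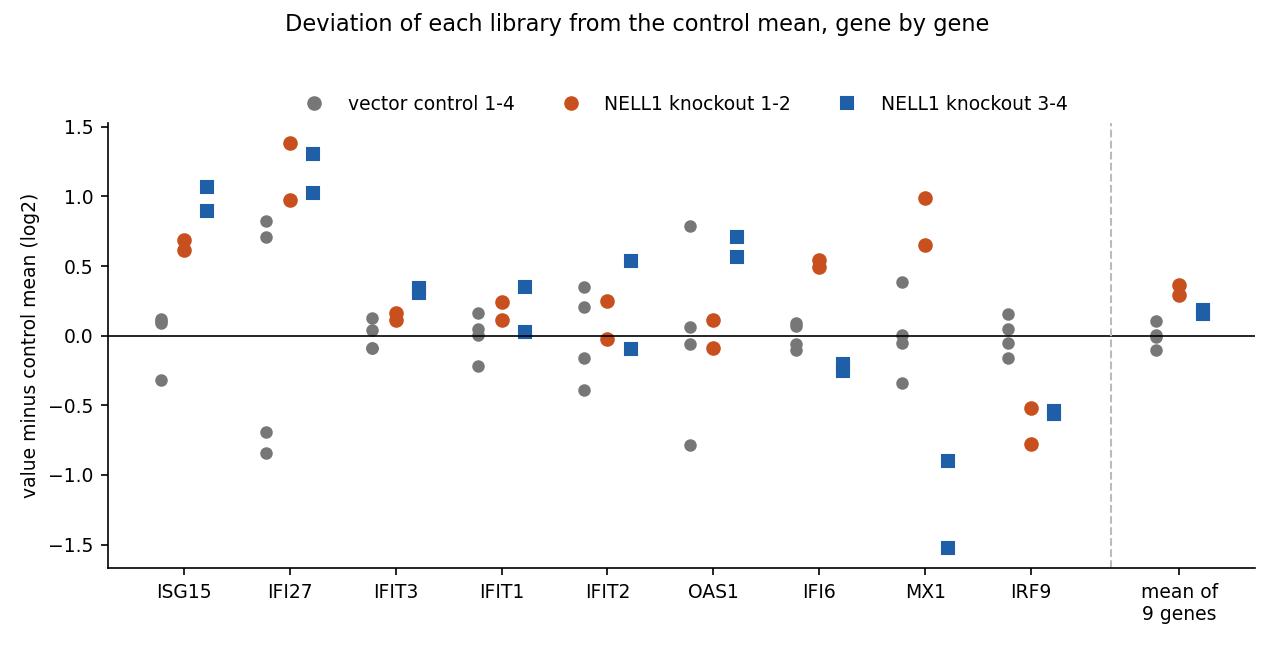
Value of each library minus the control mean of the same gene (y axis, log2) for the 9 genes and, at the right, for their mean. Grey circles are controls, orange circles knockout libraries 1 and 2 and blue squares knockout libraries 3 and 4. IFI6 and MX1 have orange above and blue below the controls, ISG15 lies above 0 and IRF9 below 0 in all 4 knockout libraries, and the mean of the 9 lies closer to 0 than any knockout library of ISG15 or IRF9.

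Replicates 1 and 2 and replicates 3 and 4 gave differences of the same sign for 6 of the 9 genes and of opposite sign for IFI6, IFIT2 and MX1. Over all genes with 8 values the signs differed for 43.5%. The stricter pattern, one knockout pair above every control and the other below every control, held for IFI6 and MX1 (2 of 9) and for 12.7% of all such genes. Whether 2 of 9 exceeds that background was not tested.

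**Figure D3:**
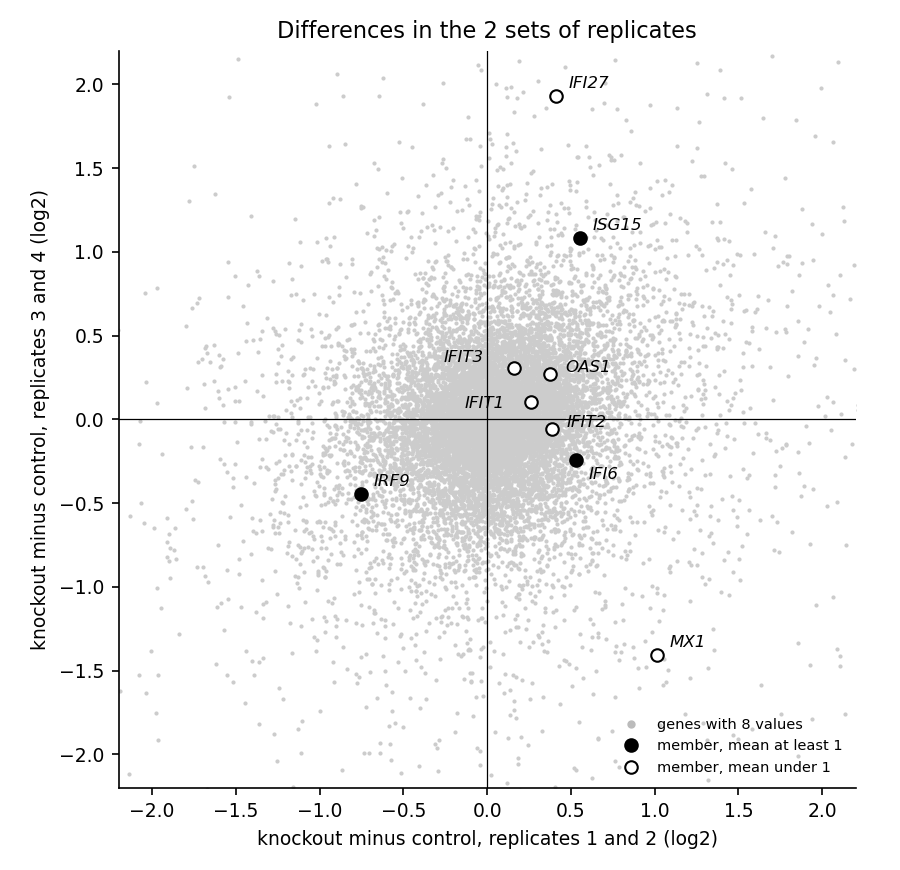
Knockout minus control (log2) in replicates 1 and 2 (x axis) against replicates 3 and 4 (y axis), with grey dots for genes with 8 values, black circles for the 3 members in the limma fit and open circles for the 6 low members. The axes stop at 2.2 in both directions, which leaves out 181 of 13943 genes. ISG15 and IFI27 lie in the upper right, IRF9 in the lower left, and IFI6 and MX1 at the lower right.

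For each of the 3 tested genes, the tested gene with the most similar profile was found by the root-mean-square difference over the 8 libraries, each profile centred on its own mean. For ISG15 it was LRRC20 (0.14, against a median of 0.47 over all tested genes), for IRF9 it was GPR39 (0.07 against 0.36). For IFI6 it was TAP2 (0.06 against 0.31), which encodes a subunit of the peptide transporter for MHC class I. TAP2 was 2.74 to 2.87 in the controls, 3.35 and 3.32 in knockout libraries 1 and 2, and 2.46 in both knockout libraries 3 and 4. Each nearest gene was picked as the smallest of all distances, so a value below the median was fixed in advance. A link between the paired genes was not tested.

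The rest of the pathway was described with 8 lists of 109 genes, of which 54 could be tested. These lists too were written with earlier results of these data known. Of these 54, 2 rose and 8 fell, and 44 did not pass the threshold. The share called, 10 of 54, stands beside 13.1% of all tested genes, and the median difference was -0.11 beside 0.01 over all tested genes. With the replicate number as a block 5 genes were called, and with the close knockout pairs averaged limma called 0 (15 at an unadjusted p under 0.05), where 10.2% and 1.20% of all tested genes were called. In fits that each left out 1 library the number was 1 to 8. It was lowest, at 1, without control library 4, at 2 and 3 without control libraries 1 and 2, at 6 without knockout library 1 or 2 and at 5 without knockout library 3. TRIM21 was called in all 8 of these fits, IRF7 in 7 and MAVS in 6, and the other 7 genes in 1 to 3, with limma adjusted p-values up to 0.141.

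Interferon ligands were mostly without a value. Of 10 ligand genes, 8 were blank in all libraries, among them IFNA1, IFNL1 and IFNG. IFNB1 had a value in control library 1 alone (-4.94). IFNE had a value in 7 libraries, from -5.84 to -2.98. CXCL10, a chemokine commonly used as a readout of interferon signalling, had values only in knockout libraries 1 and 2 (-5.30 and -5.33). RSAD2, IFI44L, OAS2 and XAF1 had a value in 4, 4, 3 and 2 of the 8 libraries. CXCL10 and these 4 genes were named after their values were seen.

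Limma called 0 of the 5 tested receptor genes (1 at an unadjusted p under 0.05) and 0 of the 4 tested JAK-STAT genes (0 at an unadjusted p under 0.05). The share called over all tested genes was 13.1%. Control and knockout means were 1.97 ± 0.17 and 2.18 ± 0.32 for IFNAR1, and 1.29 ± 0.03 and 1.54 ± 0.52 for IFNAR2 (SD, n = 4 each). Both receptor genes were above every control in knockout libraries 3 and 4, with set differences of 0.60 and 0.65 there, against -0.19 and -0.15 for replicates 1 and 2. The limma adjusted p-values over all 8 libraries were 0.427 and 0.496.

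Of the other interferon regulatory factors, 2 of 3 tested fell, beside 6.10% of all tested genes. IRF7, the factor that amplifies interferon production, fell by 0.40 (limma adjusted p = 0.0159), with 1.44, 1.45, 1.51 and 1.66 in control libraries and 1.12, 1.26, 1.05 and 1.04 in knockout libraries. IRF3, which acts directly downstream of the nucleic acid sensors, fell by 0.44 (limma adjusted p = 0.0474). Its groups overlapped at 1 library, so it was named after its values were seen, and with the replicate block its limma adjusted p was 0.0926. IRF1 differed by -0.09 ± 0.06 (SE, n = 4 each; limma adjusted p = 0.395). IRF2, with a mean under 1, was outside this count. It differed by -0.34 in the fit over 13943 genes (limma adjusted p = 0.0364), where 8.30% of genes were called.

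Among 8 tested sensors and adaptors 3 fell and none rose, beside 6.10% lower and 7.02% higher over all tested genes. DDX58, the symbol in the table for the RNA sensor RIG-I, fell by 0.58 (limma adjusted p = 0.0382), from 2.59 ± 0.14 to 2.01 ± 0.31 (SD, n = 4 each). MAVS, the mitochondrial adaptor of RIG-I, fell by 0.31 (limma adjusted p = 0.0145), with a set difference of -0.31 for replicates 1 and 2 and of -0.30 for replicates 3 and 4. IKBKE, a kinase that activates IRF3, fell by 0.38 (limma adjusted p = 0.0491). With the replicate block DDX58 and IKBKE no longer passed (limma adjusted p = 0.0642 and 0.0918). Of the 5 not called, CGAS differed by 0.24 and IFI16 by -0.23, each with groups that did not overlap (limma adjusted p = 0.054 and 0.0812).

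Of 3 tested negative regulators, the phosphatase gene PTPN2 fell by 0.31 (limma adjusted p = 0.0294, and 0.0621 with the replicate block). The others were not called, and the share called over all tested genes was 13.1%. Limma called 0 of the 2 tested enzymes of ISG15 conjugation (0 at an unadjusted p under 0.05). UBE2L6, which carries ISG15, differed by -0.05 ± 0.18 and HERC5, its ligase, by -0.16 ± 0.21 (SE, n = 4 each). HERC5 was 3.15 and 3.12 in knockout libraries 1 and 2 and 2.32 and 2.33 in knockout libraries 3 and 4, around controls of 2.76 to 2.99.

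Of 29 other tested interferon-stimulated genes 2 rose and 2 fell, a share called of 13.8%, close to the 13.1% of all tested genes. IFITM2 rose by 0.56 and IFITM3 by 0.38 (limma adjusted p = 0.0339 and 0.0291). These genes encode membrane proteins that block virus entry, and they are close copies of each other, so reads could have been split between them in the authors' quantification. TRIM21, an antibody receptor of the cytosol, fell by 0.41 (limma adjusted p = 0.0123), and PARP14, an ADP-ribosyltransferase, fell by 0.30 (limma adjusted p = 0.0359, and 0.0913 with the replicate block). The list's genes with a mean under 1 were outside these counts. Of those, EPSTI1 and DDX60 differed by 1.41 and -0.63 and passed the fit over 13943 genes (limma adjusted p = 0.0131 and 0.0189). That fit called 8.30% of genes, and IFITM2 and PARP14 did not pass it (limma adjusted p = 0.0559 and 0.0591).

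**Figure D4:**
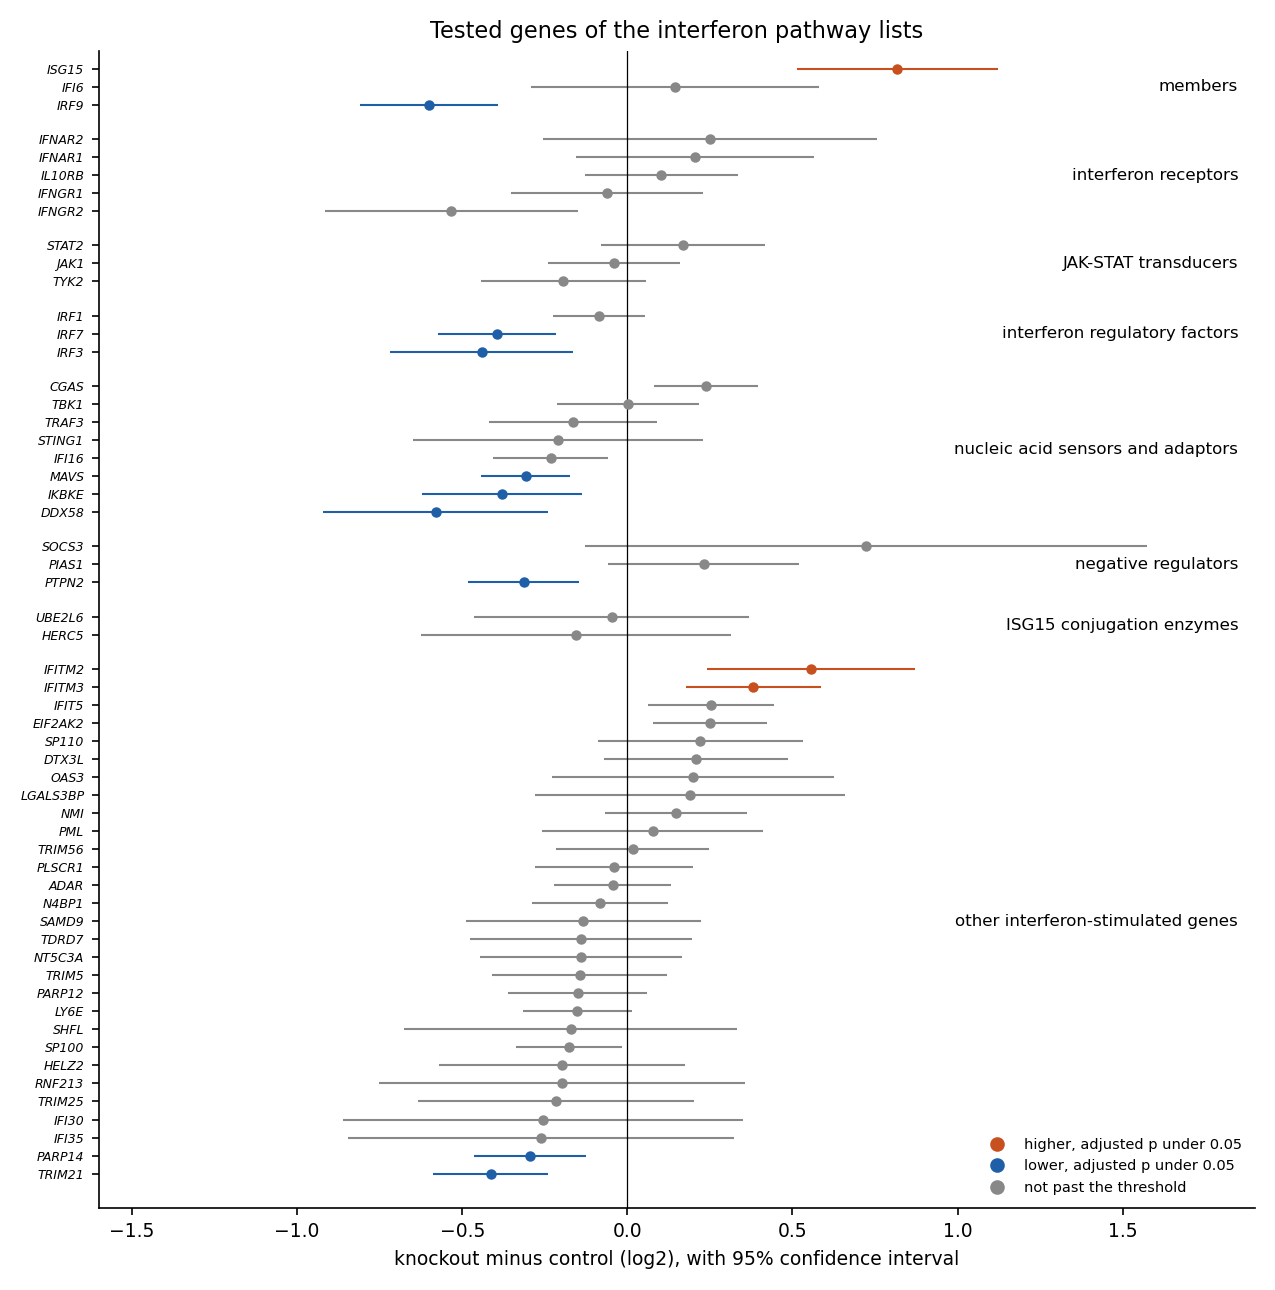
Knockout minus control (x axis, log2) with the 95% confidence interval from limma for the tested members and the tested genes of the pathway lists, grouped by list, with 1 uncalled gene left out. Orange marks genes higher and blue genes lower at an adjusted p under 0.05, and grey marks genes that did not pass. ISG15, IFITM2 and IFITM3 are the 3 higher genes, and IRF9 is the lowest of the 9 lower ones.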

How the data were processed

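RNA of 8 libraries was sequenced after a TruSeq stranded total-RNA preparation, per the labels' protocols. The submitters' processing notes name bcl2fastq, Partek 7.0 and GRCh38. The aligner, the counting program and strand setting, the annotation and the rule for blank cells are not given in the sources used here. The deposited values are on a log2 scale (base inferred from the range) and had been quantile normalized by the authors, since every library shares 1 distribution, which hides any change common to most genes. Blank cells were treated as missing. Sequencing depth is unknown.

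Groups and replicate numbers came from the sample titles. The deposited log2 values were fitted with limma 3.58.1 in R 4.3.3 (no trend, no covariate) over 9016 genes with 8 values and a mean of at least 1. Genes were called at a Benjamini-Hochberg adjusted p under 0.05. Members with a lower mean had an exact permutation test (scipy 1.17.1) and a fit over all 13943 genes with 8 values. The fit was also run on simulated data with independent noise in each library. That setting lacks the close libraries seen in both groups, so it cannot show how the fit behaves with them. The correlation of deviations from the group means was 0.20 to 0.29 for the 4 same-numbered pairs of libraries. Differently numbered pairs were not compared, so these values cannot show that the replicate numbers pair the libraries. The fit with the number as a block was therefore only an alternative. The other alternatives were filters, scalings, a pseudocount of 1, a variance trend, a threshold of 0.01, averaged knockout pairs, a batch term, sets of replicates and leaving out each library. The fit with averaged knockout pairs still counted control libraries 1 and 2 separately, although they were as close (SD of the difference 0.10).

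The members and lists were chosen with earlier results of these data known. Genes named were the 9 members, NELL1, STAT2, IRF1, IFNB1, IFNAR1, IFNAR2, up to 4 rising and 4 falling called genes per list whose groups did not overlap, and the gene with the nearest profile to each tested member. Any others were named after their values were seen. Symbols were matched to RefSeq (GRCh38.p14) for promoters and overlapping genes. Some list genes are not reported here.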

Additional observations from a re-analysis of the deposited data

Results flagged for a closer look

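ISG15 in control library 3 was 2.91, apart from the other 3 controls, whose median was 3.33: its gap to the nearest of them was 0.94 of the group's range. Without that library the ISG15 difference was 0.71 (limma adjusted p = 0.0101). IRF9 in knockout library 1 was 1.40, apart from the other 3 knockout libraries, whose median was 1.64, with a gap of 0.83 of the range. Without it the IRF9 difference was -0.54 (limma adjusted p = 0.0150). Chance sets a sample apart in about 1 of 20 groups of this size, and 36 groups of 18 genes were checked.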

How the results depend on the processing

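Against 1183 genes called, a mean of at least 3 gave 729, an adjusted p under 0.01 gave 272, a batch term for replicates 1-2 against 3-4 gave 2274, averaged knockout pairs 108, replicates 1-2 alone 5380, replicates 3-4 alone 2987, leaving out knockout 1 and 2 gave 3732, leaving out knockout 3 and 4 gave 3654, and leaving out 1 library gave 391 to 1353. Members called higher (1) numbered 0 with averaged pairs in limma (2 of the 3 tested members at an unadjusted p under 0.05) and 2 in replicates 1-2 alone or without knockout 3 and 4. Members called lower (1) numbered 0 with averaged pairs or a mean of at least 3, which IRF9 does not reach, and 2 without knockout 1 and 2. Without 1 library both counts stayed at 1. Pathway list genes called (10) numbered 4 with a mean of at least 3, 5 with the replicate block, 0 with averaged pairs or an adjusted p under 0.01, 39 in replicates 1-2 alone, 23 in replicates 3-4 alone, 31 without knockout 1 and 2, 28 without knockout 3 and 4, and 1 to 8 without 1 library.

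ISG15 (0.82) ranged from 0.71 to 0.88 and IRF9 (-0.60) from -0.65 to -0.54 when 1 library was left out, all past the threshold. With averaged pairs both kept these values and lost the call (0.82 and -0.60, limma adjusted p = 0.0662 and 0.0571). The same happened with no filter plus the replicate block (adjusted p = 0.0724 and 0.0561) and with no filter plus averaged pairs (0.132 and 0.118), which were combined after seeing the data. IFI6 (0.14) was 0.53 in replicates 1-2 alone and 0.52 without knockout 3 and 4, past the threshold in both, and was -0.24 in replicates 3-4 alone and -0.23 without knockout 1 and 2 (limma adjusted p = 0.0738 and 0.0442). Without 1 library it was 0.01 to 0.28. The block changed no call of a member in the fit over 9016 genes. The cause of these changes was not tested.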
